A study of Schizosaccharomyces pombe with 2 samples.

Results

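A stretch of 30 kb near the left end of chromosome 3 of fission yeast (Schizosaccharomyces pombe), which begins in the last part of the ribosomal DNA and runs on into single-copy genes, was read on both strands in 2 histone chaperone mutants. A probe belonged to these 30 kb when its label on the array placed it on chromosome 3 with start and end between 20001 and 49970, and control spots were left out. Its members were thus chosen by position, and the region as a whole was selected on the log2 ratios of both mutants, which were known when it was picked. These limits held 599 of the 43993 probes, 299 on the plus strand and 300 on the minus strand. Every ratio below is therefore a description.

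The mutants were asf1-1, which carries a mutant allele of asf1, and ∆hip1, which lacks hip1. Each was labelled with Cy5 (red) and hybridised to an array of its own beside wild-type RNA labelled with Cy3 (green). Mutant and wild-type cells alike came from cultures in log growth at 30 °C in rich YEA medium, and rRNA was removed from the total RNA before labelling. There was 1 array per mutant, with no replicate and no dye swap, so no difference was tested, and ± gives the SD over the probes of a stretch on 1 array. Dye and genotype cannot be told apart within an array, and the labels do not say if a common wild-type extract served both arrays.

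Asf1 is a conserved chaperone that hands histones H3 and H4 to other factors during nucleosome assembly. Hip1 is a subunit of HIRA, a chaperone complex that deposits histones outside of DNA replication and is known in fission yeast for keeping heterochromatin and some single-copy genes silent. The ends of chromosome 3 carry the ribosomal DNA, long arrays of repeated units that are transcribed into the precursor of the large rRNAs. A tiling array reads RNA by position and strand, so RNA from an annotated gene and RNA from its opposite strand are measured by separate probes.

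Probes with an outlier flag, or too dim to stand well above background in any of the 4 channels, were set aside, which left 564 of the 599. Those set aside were 5 outliers and 30 dim probes, and 0 probes were saturated. Among minus-strand probes, 96% were well above background in asf1-1 and 83.7% in ∆hip1, against 79% and 78% in the wild-type channels of these arrays. Among plus-strand probes the shares were 93.3% and 80.9%, against 77.3% and 77.9% in wild type. Across all probes the asf1-1 channel stood at 93.9% and its wild-type channel at 79.6%, so the gap between the dyes was not limited to the 30 kb. Before normalization the median log2 ratio over all probes was 0.84 on the asf1-1 array and 0.14 on ∆hip1 array, and normalization set both near 0. A gain or loss of RNA that all loci shared would not be seen, and in bulk RNA fewer cells with a transcript and less of it per cell cannot be told apart.

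Over the 287 used probes of the minus strand, the median log2 ratio to wild type was 0.84 in asf1-1 and 0.22 in ∆hip1. Over the 277 of the plus strand it was 0.33 in asf1-1 and -0.10 in ∆hip1. The same median over all 40664 used probes was 0.03 and 0.01. The medians hide sharp blocks, which the plot of the signal along both strands shows.

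**Figure D1:**
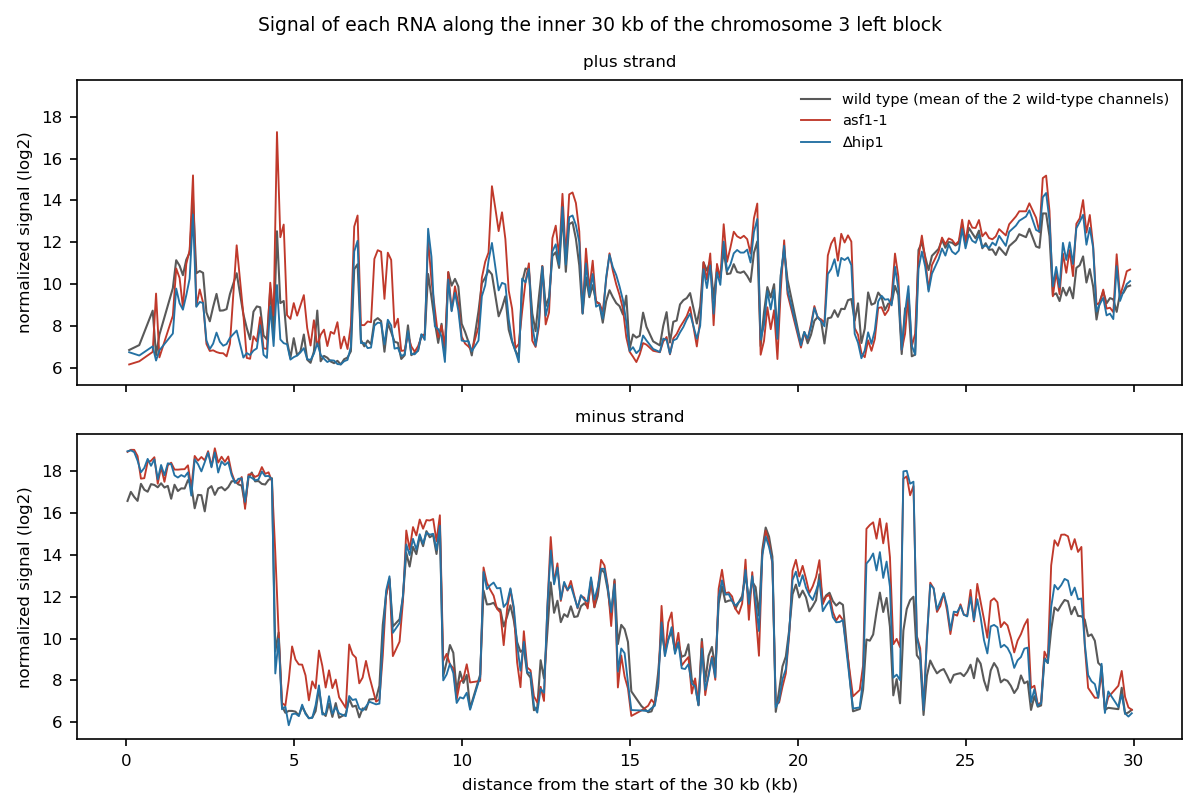
Normalized log2 signal of each used probe (vertical axis) against the distance in kb from position 20001 (horizontal axis), with the plus strand above and the minus strand below. The grey line is the mean of the 2 wild-type channels and the coloured lines are asf1-1 and ∆hip1; levels of different probes are not comparable with each other, and a reader should follow where a coloured line leaves the grey one, as it does on the minus strand from 22.0 to 26.9 kb, where both mutants lie above it.

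Loci are named from the RefSeq gene table of assembly ASM294v3. No source used here names the build of the array positions, so the table was laid over the array with no shift and checked against the wild-type signal. At the ends of protein-coding entries the wild-type signal on the gene's own strand stepped up into the gene by a mean of 2.06 on the log2 scale (14 ends). Among shifts of up to 2000 bp either way in steps of 50 bp, the largest mean step was at a shift of 0, and shifts of 200 bp or more gave at most 0.60. All positions printed are those of the array. The table holds 27 entries wholly inside the 30 kb, of which 7 are protein-coding, 16 lncRNA and 2 rRNA. It gives no strand, so the strand of a coding gene was read from its systematic name, where a final C marks the minus strand, and values at lncRNA entries are given by array strand. The table places neither hip1 nor asf1 inside a tiled stretch, so the labels of the arrays could not be checked on the mutated genes. The stretches described below end where the ratios of the mutants step, so the spread of the ratios within a stretch is narrowed by that choice. Counts of probes higher in 1 mutant than in the other, or past 2-fold in both, have no share over all probes beside them. They describe their own stretch or entry only.

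The minus strand began with a bright stretch, from 20011 to 24370, which covers the last rRNA entries. Its log2 signal in wild type was 17.31 on the asf1-1 array and 17.29 on ∆hip1 array, and 18.19 in asf1-1 and 17.96 in ∆hip1. The check of positions above used no end of an rRNA entry, so the placement of these entries on the array was not checked. Within the rRNA entries as placed, asf1-1 stood at a log2 ratio of 1.67 ± 0.75 and ∆hip1 at 0.99 ± 0.76 (23 probes). Over these 23 probes the log2 signals were 16.86 and 17.29 in wild type, 18.51 in asf1-1 and 18.33 in ∆hip1, so the wild-type channels were farther apart than the mutant channels. Between these entries the values were 0.40 ± 0.40 and 1.10 ± 0.55 (6 probes). Past the last rRNA entry, up to 24370, it was 0.21 ± 0.34 and 0.12 ± 0.24 (12 probes), so neither mutant stood apart from wild type there by more than the spread of the probes. Between 20011 and 20370, the end of SPRRNA.48, asf1-1 stood at 2.25 ± 0.11 and ∆hip1 at 1.99 ± 0.30 (4 probes). The whole bright stretch had its median at the 99.7th percentile of intensity on both arrays, where the loess curve rests on few probes. The RNA had been depleted of rRNA, and how completely that was done in each sample, or how far other rDNA copies gave signal, was not tested.

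The plus strand opposite the rRNA went the other way. From 21361 to 22520 asf1-1 stood at a log2 ratio of -1.17 ± 0.78 and ∆hip1 at -1.36 ± 0.36 (12 probes). From 22561 to 23120 wild type had log2 signals of 8.68 and 9.04, asf1-1 had 6.73 and ∆hip1 7.20. All 6 of these probes were lower than wild type in both mutants, with a ratio of -1.98 ± 0.27 in asf1-1 and -1.92 ± 0.17 in ∆hip1. Under other ways of normalizing and filtering, the value in this last stretch ran from -2.85 to -1.03 in asf1-1 and from -2.75 to -1.15 in ∆hip1. In the neighbouring window at 23061 to 24020 the wild-type channel of the asf1-1 array was itself 1.21 above that of ∆hip1 array. The ratios there were -1.44 in asf1-1 and -0.92 in ∆hip1, and the difference between these ratios was smaller than the gap between the wild-type channels.

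Right beyond the rDNA, asf1-1 stood above wild type on both strands and ∆hip1 did not. No entry of the table covers most of this interval, which lies between the rDNA and SPCP20C8.01C. From 24411 to 27270 on the minus strand, wild type was well above background on 3 of 28 probes on the asf1-1 array and on 4 on the other, ∆hip1 on 9, and asf1-1 on all 28. The log2 signals were 6.71 and 6.53 in wild type, 8.22 in asf1-1 and 6.64 in ∆hip1. The ratio was 1.64 ± 0.98 in asf1-1 and 0.09 ± 0.33 in ∆hip1, and 23 probes of asf1-1 were at least 2-fold above wild type against 0 of ∆hip1. Over all used probes of the arrays, 16.6% were that far above wild type in asf1-1 and 14.9% in ∆hip1, and 13.5% and 7.41% that far below. Since wild type was not well above background on most of these 28 probes, no fold is given. Detection in asf1-1 was high across the arrays, on 93.9% of all probes against 79.6% in its wild-type channel. It was high in flat stretches too. From 27961 to 28920 on the plus strand asf1-1 was well above background on all 10 probes and wild type on 3 and 4, at a ratio of 0.22 ± 0.33. The detection counts alone therefore do not set this interval apart. The block ended before SPCP20C8.01C: from 27311 to 28270 wild type had log2 signals of 10.69 and 10.92, and the ratios were -0.47 ± 0.65 in asf1-1 and -0.21 ± 0.33 in ∆hip1 (8 probes).

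On the plus strand of the same interval more of the wild-type and ∆hip1 probes were detected. From 24361 to 27320 wild type was well above background on 10 of 30 probes on the asf1-1 array and on 8 on the other, ∆hip1 on 14 and asf1-1 on all 30. The log2 signals were 6.93 and 6.74 in wild type, 8.18 in asf1-1 and 6.71 in ∆hip1. The ratio was 1.31 ± 0.83 in asf1-1 and 0.01 ± 0.53 in ∆hip1, and asf1-1 was higher than ∆hip1 on 29 of the 30. Within it, 4 probes from 26761 to 27120 had log2 signals of 9.25 and 8.80 in wild type, 10.40 in asf1-1 and 9.37 in ∆hip1, which was well above background on all 4 and past 2-fold on 2 of them. The adjoining 6 probes from 27361 to 27920 stood at log2 signals of 8.31 and 7.92 in wild type, 11.35 in asf1-1 and 8.08 in ∆hip1. There the ratio was 2.91 ± 0.38 in asf1-1, which is 7.50-fold, and 0.21 ± 0.17 in ∆hip1. The probes of the mutants did not overlap on this stretch, but its ends were set on these same ratios. How often such stretches separate the mutants across the arrays was not counted. Other settings gave asf1-1 between 1.60 and 3.41 on the minus strand of this interval and between 1.31 and 2.34 on the plus strand, with ∆hip1 between -0.55 and 0.67 on both.

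**Figure D2:**
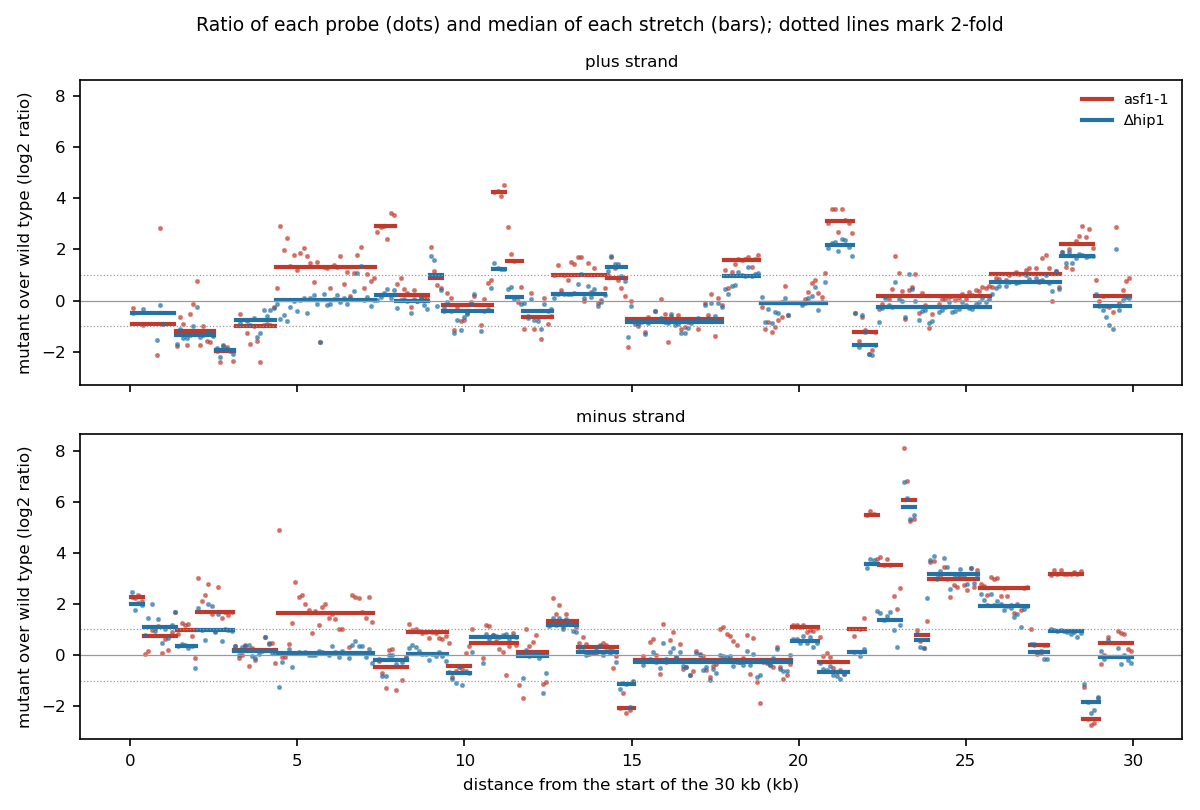
Log2 ratio of mutant over wild type for each used probe (dots) and the median of each stretch (bars), against the distance in kb from position 20001, with the plus strand above and the minus strand below. At 4.4 to 7.3 kb the bars of asf1-1 alone lie above the 2-fold line on both strands, and on the minus strand those of both mutants lie above it from 22.0 to 23.5 kb and from 23.9 to 26.9 kb.

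The first coding genes beyond the rDNA are SPCP20C8.01C and SPCP20C8.02C, both on the minus strand. SPCP20C8.01C had log2 signals of 14.34 and 14.49 in wild type, 15.33 in asf1-1 and 14.76 in ∆hip1. Its ratio was 0.89 ± 0.17 in asf1-1 and 0.04 ± 0.17 in ∆hip1, and all 11 probes were higher in asf1-1 than in ∆hip1. Median centring of the array in place of loess took the asf1-1 value of this stretch (28311 to 29470) to -0.19, so its direction depends on the normalization. SPCP20C8.02C stood at 0.55 ± 0.61 in asf1-1 and 0.76 ± 0.08 in ∆hip1 (9 probes), below 2-fold in both.

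In asf1-1, RNA opposite SPCP20C8.02C differed far more than the gene itself. In ∆hip1 it did not over the whole entry, at 0.53 on the opposite strand and 0.76 on the gene's own. From 30861 to 31220 on the plus strand, within the lncRNA entry SPNCRNA.6678, wild type had log2 signals of 9.14 and 9.20, asf1-1 had 13.53 and ∆hip1 10.45. The ratio was 4.26 ± 0.18 in asf1-1, which is 19.2-fold, and 1.25 ± 0.12 in ∆hip1, which is 2.39-fold (4 probes). Each of these 4 probes was past 2-fold in both mutants, and the lowest asf1-1 probe (4.08) lay above the highest of ∆hip1 (1.48). Over all 7 plus-strand probes of SPNCRNA.6678 the mutants did overlap. There asf1-1 ran from 0.07 to 4.51 and ∆hip1 from -0.42 to 1.48, and 4 probes were past 2-fold in each. How often the mutants fail to overlap elsewhere on the arrays was not counted. The stretch is shorter than a window, and the windows that hold it stood at 0.17 (30061 to 31020) and 1.04 (31061 to 32020) in asf1-1.

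The pseudogene SPCP20C8.03 lies within the lncRNA entry SPNCRNA.6679. On its minus strand both mutants stood above wild type, at 1.33 ± 0.31 in asf1-1 and 1.19 ± 0.22 in ∆hip1. On its plus strand asf1-1 stood at 1.00 ± 0.39 and ∆hip1 at 0.26 ± 0.07, and all 7 probes were higher in asf1-1. Farther along SPNCRNA.6679, from 34261 to 34820 on the plus strand, ∆hip1 (1.30 ± 0.35) stood above asf1-1 (0.90 ± 0.55), on 6 of 6 probes. Across settings the difference, asf1-1 minus ∆hip1, ran from -0.35 to 0.04, so this order depends on the processing.

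The middle of the 30 kb held long stretches whose medians lay within 2-fold of wild type in both mutants. From 35111 to 39770 on the minus strand, the ratio was -0.19 ± 0.68 in asf1-1 and -0.26 ± 0.33 in ∆hip1 (44 probes). From 34861 to 37720 on the plus strand both mutants were below wild type, at -0.72 ± 0.52 and -0.84 ± 0.38 (26 probes). The highest of these probes stood at 0.24 in asf1-1 and at -0.08 in ∆hip1. The plus-strand gene SPCC1884.01 stood at 1.10 ± 0.99 in asf1-1 and 0.47 ± 0.69 in ∆hip1 (17 probes). The difference lay from 37761 to 38820, where asf1-1 stood at 1.60 ± 0.38 and ∆hip1 at 0.98 ± 0.33 (11 probes). This stretch covers the downstream part of the gene and runs past its last probe, which ends at 38720. It also lies within the lncRNA entry SPNCRNA.1096, whose strand is not known here, so the signal cannot be assigned to 1 of them. Other settings put that stretch at 0.83 to 1.69 in asf1-1 and at 0.38 to 0.98 in ∆hip1.

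From 40861 to 48970 large differences from wild type lay on both strands, with flatter stretches between them. The longest flat one was on the plus strand from 42361 to 45720, at 0.17 ± 0.52 in asf1-1 and -0.24 ± 0.41 in ∆hip1 (33 probes). The first large difference was on the plus strand from 40861 to 41620, mostly within the lncRNA entry SPNCRNA.6682. Wild type had log2 signals of 8.72 and 8.81, asf1-1 had 12.01 and ∆hip1 11.03. The ratios were 3.11 ± 0.40 in asf1-1 and 2.18 ± 0.23 in ∆hip1, or 8.60-fold and 4.53-fold (8 probes). All 8 probes were past 2-fold in both mutants and higher in asf1-1.

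The block next to it covered meu3, a non-coding RNA named for its higher expression in meiosis, and the overlapping lncRNA entry SPNCRNA.6683. On the minus strand of SPNCRNA.6683 the ratios were 3.76 ± 0.94 in asf1-1 and 1.63 ± 0.88 in ∆hip1 (7 probes). The strand of either entry is not known here, so the signal cannot be assigned to 1 of them. On the minus strand of meu3, wild type had log2 signals of 11.01 and 11.52, asf1-1 had 15.42 and ∆hip1 13.68. The ratio was 3.84 ± 0.98 in asf1-1 and 1.72 ± 1.12 in ∆hip1, or 14.3-fold and 3.30-fold (7 probes). On the plus strand of meu3 the ratios were -0.34 ± 0.96 and -0.82 ± 0.96, so the excess lay on the minus strand on both arrays. The ratio was uneven along the entry. From 42011 to 42370 asf1-1 stood at 5.50 ± 0.90 and ∆hip1 at 3.57 ± 0.97, or 45.2-fold and 11.9-fold (4 probes). From 42411 to 43070, which runs past the end of meu3, they stood at 3.53 ± 0.80 and 1.37 ± 0.48 (7 probes). The mutants nevertheless kept a steady distance over meu3, with a median difference of 2.06 ± 0.17 (asf1-1 minus ∆hip1). Other settings gave 4.58 to 5.52 in asf1-1 and 2.92 to 3.91 in ∆hip1 for the stretch with the higher ratio.

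A peak of 4 probes followed at 43111 to 43470 on the minus strand, inside the lncRNA entry SPNCRNA.6684. Wild type had log2 signals of 11.28 and 11.94, asf1-1 had 17.46 and ∆hip1 17.74. The ratios were 6.05 ± 1.36 and 5.81 ± 0.66, or 66.4-fold and 56.0-fold. The difference between the mutants, asf1-1 minus ∆hip1, was 0.29 ± 0.70, within the spread of the probes, and ran from -1.10 to 0.29 across settings. The highest probe, at 43111 to 43170, had a ratio of 8.09 in asf1-1 and 6.76 in ∆hip1, and ranked 3 of 40664 used probes on each array. The probes on either side lay far below it. The probe at 43011 to 43070 had 2.63 and 1.16, and the probe at 43511 to 43570 had 0.98 and 0.83. On the plus strand of SPNCRNA.6684 the ratios were 0.05 ± 0.63 and -0.38 ± 0.53 (14 probes). The files hold no probe sequences, so whether similar sequences elsewhere in the genome share this signal was not analysed here. Other settings gave 4.94 to 6.06 in asf1-1 and 5.13 to 6.43 in ∆hip1.

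The gene nic1, which encodes a nickel transporter, lies on the plus strand past the peak and overlaps SPCC757.02C on the minus strand. Over nic1 itself the ratio was 0.31 ± 0.54 in asf1-1 and -0.10 ± 0.51 in ∆hip1 (30 probes). On the opposite strand of nic1 it was 2.66 ± 0.81 and 2.31 ± 0.96 (34 probes). The first part of that strand, from 43911 to 45370, is largely outside SPCC757.02C. There wild type had log2 signals of 8.46 and 8.29, asf1-1 had 11.34 and ∆hip1 11.54. All 15 probes were past 2-fold in both mutants, with ratios of 2.98 ± 0.42 in asf1-1 and 3.18 ± 0.38 in ∆hip1, and ∆hip1 was the higher on 14 of them. The median difference, asf1-1 minus ∆hip1, was -0.21 ± 0.20. With the wild-type channels crossed between the arrays it was 0.21, so this order depends on the processing.

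Over the rest of SPCC757.02C asf1-1 was the higher. From 45411 to 46870 wild type had log2 signals of 8.24 and 7.73, asf1-1 had 10.63 and ∆hip1 9.57. The ratios were 2.62 ± 0.45 and 1.92 ± 0.33, and all 15 probes were past 2-fold in both mutants and higher in asf1-1, and the difference was at least 0.20 in all settings. Across the 20 probes of the whole gene the ratios were 2.65 ± 0.48 and 1.97 ± 0.59, or 6.26-fold and 3.91-fold. The block ended before 46911. From there to 47470 the ratios were 0.38 ± 0.34 and 0.13 ± 0.26 (6 probes), and a separate block began at 47511.

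That block covered hsp3101, a minus-strand gene of the Hsp31 and DJ-1 family of stress proteins. Most of it also lies within the lncRNA entry SPNCRNA.1100, whose strand is not known here, so the signal they share cannot be assigned to 1 of them. From 47511 to 48470 wild type had log2 signals of 11.32 and 11.46, asf1-1 had 14.56 and ∆hip1 12.39. The ratio was 3.18 ± 0.07 in asf1-1 and 0.93 ± 0.09 in ∆hip1, or 9.06-fold and 1.90-fold. Single probes ran from 3.15 to 3.31 in asf1-1 and from 0.69 to 1.01 in ∆hip1, so the mutants did not overlap on these 10 probes, and their median difference was 2.33 ± 0.10. The stretch leaves out the probe of the gene at 47411 to 47470. Over all 11 probes of hsp3101 the ratio was 3.17 ± 0.86 in asf1-1 and 0.91 ± 0.34 in ∆hip1. There the lowest asf1-1 probe (0.38) lay below the highest ∆hip1 probe (1.01), although asf1-1 was the higher on each of the 11. With 1 array each, the spread between cultures is unknown, and how often other stretches of the arrays separate the mutants was not counted. For the stretch of 10 probes, other settings gave asf1-1 between 2.27 and 3.18 and ∆hip1 between 0.28 and 1.02, with the difference between 1.99 and 2.35.

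Beside hsp3101 and opposite it, both mutants differed from wild type as well. Just upstream of the gene on the minus strand, from 48511 to 48970, wild type had log2 signals of 10.15 and 10.08, asf1-1 had 7.40 and ∆hip1 7.96. All 5 probes were below wild type, at -2.50 ± 0.66 in asf1-1 and -1.82 ± 0.46 in ∆hip1. From 47861 to 48820 on the plus strand, mostly opposite hsp3101 and within the lncRNA entry SPNCRNA.1100, wild type had 9.87 and 10.13, asf1-1 had 12.14 and ∆hip1 11.98. The ratios there were 2.20 ± 0.57 and 1.74 ± 0.15, or 4.58-fold and 3.35-fold, and all 10 probes were past 2-fold in both mutants. Other settings put the low stretch at -2.71 to -1.30 in asf1-1 and at -2.50 to -1.11 in ∆hip1.

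**Figure D3:**
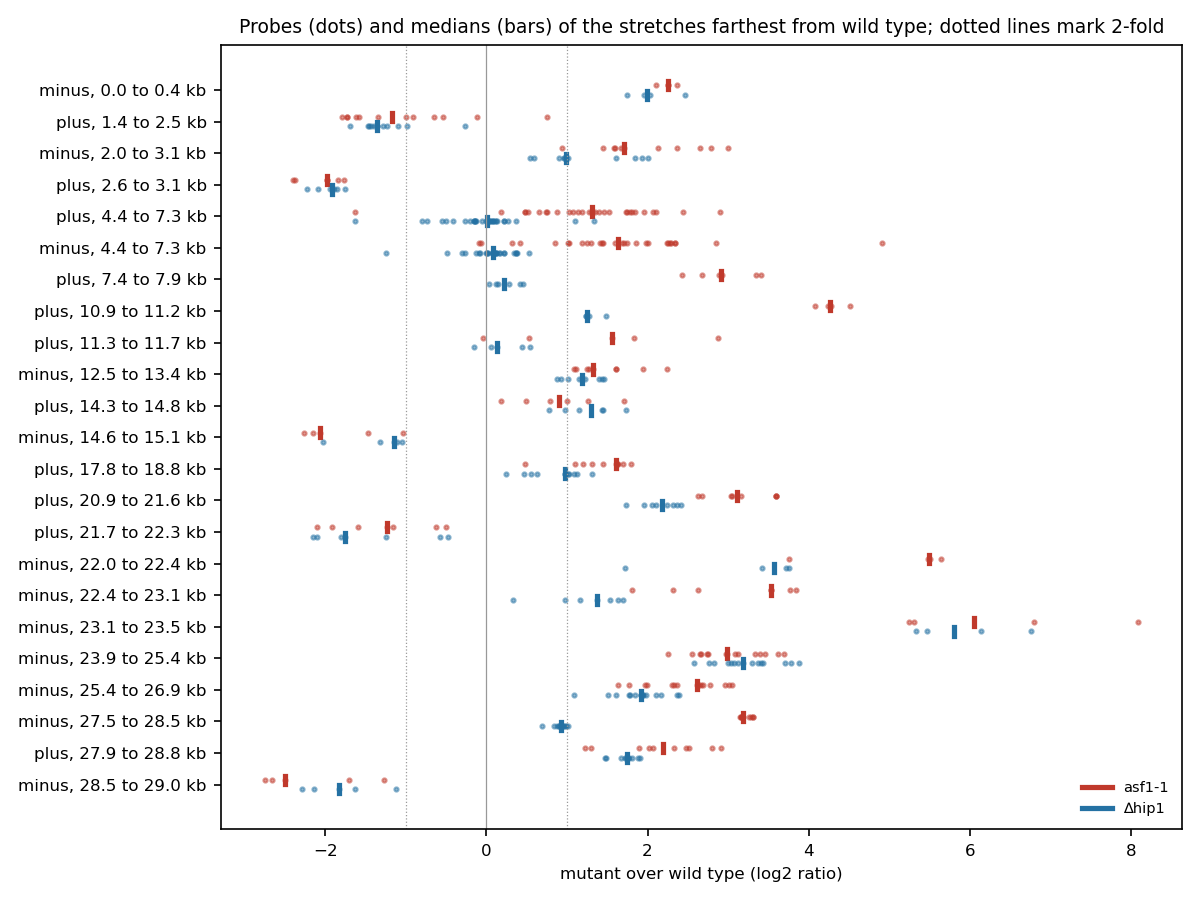
Log2 ratio of mutant over wild type (horizontal axis) for the used probes (dots) and their median (vertical bars) in the 23 stretches where a mutant's median lies at least 2.4-fold from wild type, labelled by strand and distance in kb from position 20001. The dots of asf1-1 and ∆hip1 do not overlap in the 10-probe stretch of hsp3101 (27.5 to 28.5 kb) or opposite SPCP20C8.02C (10.9 to 11.2 kb). Nor do they overlap on the plus strand at 7.4 to 7.9 kb and 20.9 to 21.6 kb, or on the minus strand at 22.4 to 23.1 kb. In the others they overlap, among them the 4-probe peak (23.1 to 23.5 kb) and the stretch opposite nic1 (23.9 to 25.4 kb). The stretches end where these ratios step, which favours dots that do not overlap.

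Other short stretches stood below wild type in both mutants. From 34611 to 35070 on the minus strand, asf1-1 was at -2.06 ± 0.53 and ∆hip1 at -1.15 ± 0.40 (5 probes). From 41661 to 42320, on the plus strand opposite the start of the meu3 block, asf1-1 was at -1.24 ± 0.61 and ∆hip1 at -1.75 ± 0.69 (7 probes). Other settings took asf1-1 as near to 0 as -0.88 in the first of them and -0.40 in the second, so neither stayed past 2-fold in all settings.

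Of the 7 coding entries wholly inside, 6 had at least 3 used probes on each strand, and the exception was new22. On the chromosome 2 block the same step in wild-type signal was -0.08 with no shift and 1.83 at a shift of 1800 bp (1746 ends), so the table does not line up there, and no share over all coding entries of the arrays can be set beside these genes. No count of them is given. Their own strands are described above. On the opposite strand, SPCP20C8.01C stood at 0.14 ± 0.70 in asf1-1 and -0.02 ± 0.76 in ∆hip1 (11 probes). SPCP20C8.02C stood at 2.35 ± 1.71 and 0.53 ± 0.69 on its opposite strand (10 probes). Opposite hsp3101 the ratios were 1.30 ± 0.75 and 1.48 ± 0.57 (11 probes). Opposite SPCC757.02C they were 0.54 ± 0.34 and 0.08 ± 0.42 (17 probes). Opposite SPCC1884.01 they were 0.01 ± 0.69 and -0.32 ± 0.33 (18 probes). The values opposite nic1 and over SPCC757.02C share probes.

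Counted in fixed windows of 1 kb on 1 strand, where a window takes the median of at least 3 probes, 21 of the 60 windows of the 30 kb were at least 2-fold higher in asf1-1, 11 on the plus and 10 on the minus strand. Over all 4380 windows of the arrays the share was 13.6%. In ∆hip1 8 windows were higher, 2 on the plus and 6 on the minus strand, where the share over all windows was 12.7%. Lower windows numbered 2 in asf1-1 (22061 to 23020 at -1.75 and 23061 to 24020 at -1.44, all on the plus strand), against 7.42% of all windows. They numbered 2 in ∆hip1 as well (21361 to 22020 at -1.36 and 22061 to 23020 at -1.59), against 3.63% of all windows. In either mutant 0 windows of the minus strand were 2-fold lower, and with windows shifted by 500 bp it was 2 in each. The windows were chosen with these ratios known, so the counts stand beside these shares as a description.

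Over the arrays, 9.93% of all windows were higher in both mutants, and 435 of the 555 windows higher in ∆hip1 were higher in asf1-1 too. In the 30 kb, all 8 windows that were higher in ∆hip1 were also higher in asf1-1, 2 on the plus and 6 on the minus strand. On the minus strand they were the window at 20011 to 20970 over the rDNA (1.10 in asf1-1 and 1.60 in ∆hip1) and the 5 neighbouring windows from 42011 to 46970. In those 5, asf1-1 stood between 2.15 and 3.76 and ∆hip1 between 1.66 and 3.24. On the plus strand they were the windows at 41061 to 42020 (2.65 and 1.84) and 48061 to 49020 (2.20 and 1.72). A single window, at 22061 to 23020 on the plus strand, was lower in both, against 2.56% of all windows. In 0 windows did the mutants stand past 2-fold in opposite directions.

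Taken against each other, asf1-1 exceeded ∆hip1 by at least 2-fold in 10 windows, 5 on each strand, against 1.44% of all windows. The reverse held in 0 of the 60, against 1.48% of all windows. On the plus strand 4 of the 5 were the neighbouring windows from 24061 to 28020, with differences of 1.11 to 2.43, and the fifth was the window at 33061 to 34020 (1.06). On the minus strand the windows at 25011 to 25970 (1.72) and 26011 to 26970 (1.26) lay opposite them. The others on the minus strand were the meu3 window at 42011 to 42970 (2.10) and the windows at 47011 to 47970 (1.08) and 48011 to 48970 (1.16), which share the hsp3101 block.

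**Figure D4:**
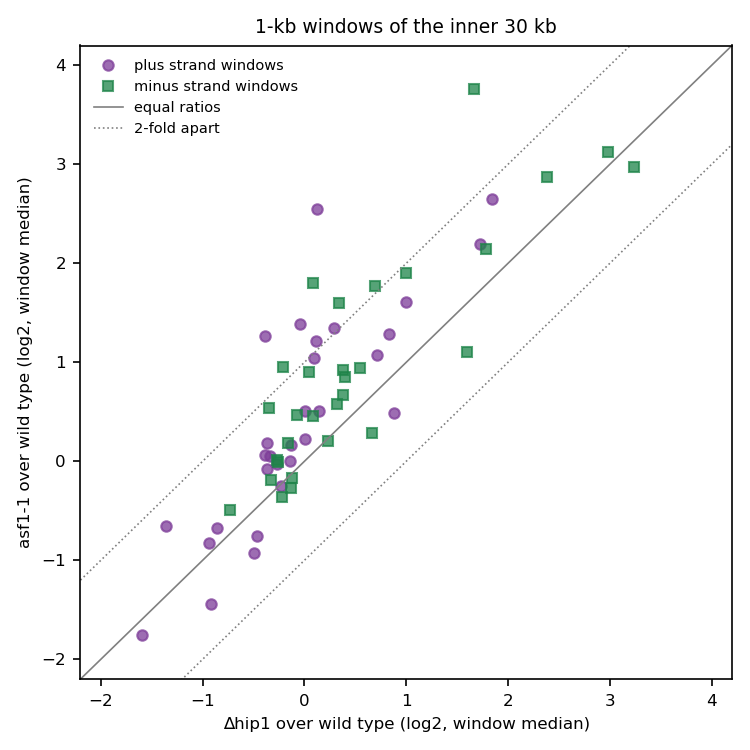
Median log2 ratio of asf1-1 over wild type (vertical axis) against that of ∆hip1 over wild type (horizontal axis) in the 60 windows, with plus-strand windows as circles and minus-strand windows as squares. The solid line marks equal ratios and the dotted lines a 2-fold difference; 10 windows lie above the upper dotted line and 0 below the lower one.

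The distance between the mutants can be set against the distance between the wild-type channels of the arrays. Over the 564 used probes the wild-type channels differed with an SD of 0.45 on the log2 scale, and 11 probes (1.95%) were at least 2-fold apart. The mutant channels differed with an SD of 0.95, and 118 probes (20.9%) were at least 2-fold apart. Over all used probes the SDs were 0.32 and 0.58 and the shares 1.17% and 6%, so each was larger in the 30 kb. In 8 windows the wild-type channels were at least 0.5 apart. One of them was the plus-strand window at 24061 to 25020, where wild type was 0.65 higher on the asf1-1 array and asf1-1 still stood at 1.27 against -0.39 in ∆hip1.

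At the rDNA edge, the last minus-strand window outside the limits, at 19011 to 19970, stood at 2.00 in asf1-1 and 1.08 in ∆hip1, and the first inside stood at 1.10 and 1.60. On the plus strand the last window outside, which ends at 20020, stood at -1.52 and -1.60 and the first inside, at 20061 to 21020, at -0.93 and -0.50. At the inner edge the tiling itself ends, and the last windows stood at 0.47 and -0.08 on the minus strand and at 0.18 and -0.37 on the plus strand. In the outer 20 kb, which hold the rDNA, 18 of 40 windows were higher and 8 lower in asf1-1, and 3 were higher and 12 lower in ∆hip1. There too asf1-1 exceeded ∆hip1 by 2-fold in 11 windows and the reverse held in 0. In the long block tiled on chromosome 2 these counts were 32 and 54 of 4074 windows, and the difference between the blocks was not tested.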

How the data were processed

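Two-colour Agilent arrays of 60-base probes, each strand every 100 bp, were analysed: 1 for asf1-1 and 1 for ∆hip1. The deposited spot intensity values were made with Agilent Feature Extraction 10.1.1.1, per the file headers, and are not normalized. Per the file headers, the deposited log10 ratio had its background subtracted and its dyes balanced, and the p-value deposited with it describes 1 spot. The authors' series table gives that ratio on a log2 scale (within 0.001), or 0 where the p-value was above 0.05 (36.1% and 43.1% of probes), so its scale and direction are settled. Its column medians were 0 and 0.

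Median signals were corrected with normexp (offset 50) and normalized by loess within each array, with controls and outliers at weight 0 (limma 3.58.1, R 4.3.3). Single channels took Aquantile between arrays as well. Python 3.11.15, numpy 2.4.6 and pandas 2.3.3 gave the tables, and figures were drawn with matplotlib 3.10.9. Stretches came from a penalised least-squares segmentation (penalty 3, at least 4 probes) of the ratios of both mutants, a unit added after seeing the data. Segmenting the wild-type signal gave 28 stretches on the minus and 20 on the plus strand, and the ratios gave 28 and 23. Named are windows past 2-fold on an array or between the mutants, stretches, and windows at the edges, and genes only by position. Steps were tested on simulated data. The number of arrays limits the precision, and no test was run. Members and lists were chosen with earlier results of these data known.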

Additional observations from a re-analysis of the deposited data

How the results depend on the processing

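No paired analysis was possible because there was 1 array per mutant and no result comes from a test. Across the alternatives no value past 2-fold changed direction, and of 1209 values of the 51 stretches 985 stayed within the SD over probes and 224 did not. The counts of lower windows moved most. In asf1-1 on the plus strand (2) the count was 6 both by the scanner log ratio and by the series table, 0 after median centring and 4 with crossed wild-type channels. In ∆hip1 on the plus strand (2) it was 5 without background subtraction, 6 by the series table, 7 by the scanner log ratio, 1 after median centring, 4 with crossed channels and 4 with windows shifted by 500 bp. On the minus strand (0) it was 1 with median centring and 2 with shifted windows in asf1-1, and 1 by each of scanner log ratio, series table and median centring and 2 with shifted windows in ∆hip1. Windows higher in asf1-1 than in ∆hip1 (5 on each strand) numbered 3 on the minus strand over probes above background in all 4 channels and 3 on the plus strand with shifted windows. The reverse (0) was 1 on the minus strand with median centring and 2 on the plus strand with crossed channels. The plus-strand median of asf1-1 (0.33) was 0 in the series table, which holds many zeros, and 0.63 with loess on bright probes alone, a setting chosen after seeing the data, which also gave the minus-strand median of ∆hip1 (0.22) as 0.47. Median centring gave the minus-strand median of asf1-1 (0.84) as 0.54. The cause of these shifts was not tested. In the interval beyond the rDNA most wild-type probes were not well above background, which limits the ratios there.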
